A study of Mus musculus with 16 samples.

Results

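The proteasome genes were defined by symbol: every gene of the count table whose GENCODE M21 symbol is Psm followed by a family letter from a to g and a number. The rule found 49 genes among the 31960 genes of the table, and no gene of that pattern in the annotation was missing from the table. By role they were 7 alpha ring and 4 structural beta subunits of the 20S core, its 3 constitutive and 3 inducible catalytic subunits, 2 tissue-restricted core subunits, 17 subunits of the 19S cap (6 ATPases, 3 other base subunits and 8 lid subunits), 6 regulators and 7 assembly factors (4 for the 20S core and 3 for the 19S cap). In all, 48 of the 49 passed edgeR's filterByExpr filter on low counts, and Psma8 did not.

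Hippocampal poly-A RNA was sequenced from females and males of the High Activity and the Low Activity strain, with 4 mice for each strain and sex, 1 library per mouse and all mice 70 days old. High Activity and Low Activity are inbred strains. They descend from a cross of BALB/cJ with C57BL/6, were selected in opposite directions on open-field activity and were then inbred, so a difference between them can come from selection or from alleles fixed by inbreeding, and these cannot be told apart here. The labels give no drug treatment and no transgene. Libraries are named by the numbers in their titles, 1 to 4 for High Activity females, 5 to 8 for High Activity males, 9 to 12 for Low Activity females and 13 to 16 for Low Activity males.

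The proteasome is the protease that degrades most ubiquitin-tagged proteins of a cell. Its 20S core is a stack of 4 rings, with alpha subunits outside and beta subunits inside, and 3 of the beta subunits are the proteases. The 19S cap binds ubiquitin chains, unfolds the substrate with a ring of ATPases and threads it into the core. Interferon-gamma induces 3 alternative proteases (Psmb8, Psmb9 and Psmb10), which replace the constitutive ones in the immunoproteasome and change the peptides made for MHC class I. In neurons, proteasomes take part in the turnover of synaptic proteins. Dedicated chaperones (Psmg1 to Psmg4 for the core, Psmd5, Psmd9 and Psmd10 for the cap) guide assembly and are not part of the finished particle.

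Total expected counts ranged from 20815456 to 28760896 per library. Markers of neurons were high in every library, with 3 marker genes summing to between 2886 and 3210 CPM (counts per 1000000, scaled by TMM factors) and overlapping between the groups. Markers of neighbouring tissue varied. The sum over 4 thalamus and habenula markers was 49 to 102 CPM in High Activity females, against 41.8 to 48.5 CPM in Low Activity females, and 45.6 to 257 CPM in High Activity males, against 48.9 to 160 CPM in Low Activity males. The highest High Activity values were those of males 6 (257 CPM) and 8 (154 CPM). Choroid plexus markers, 5 genes with none called, ranged from 990 to 4450 CPM in High Activity females, against 129 to 1672 CPM in Low Activity females, and from 2280 to 5259 CPM in High Activity males, against 720 to 3530 CPM in Low Activity males. All 3 blood markers were called, and their sum in males was 421 to 524 CPM in the High Activity strain, against 136 to 289 CPM in the Low Activity strain. Of 4 endothelium markers 3 were called, with median differences of 0.12 in females and 0.24 in males. The part of these tissues in the results was not tested. In bulk tissue, fewer cells of a type and less RNA per cell cannot be told apart.

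Strain differences below are log2 fold changes, High minus Low Activity, with their standard error. They come from edgeR's quasi-likelihood test on strain, sex and their interaction over all 16 libraries, and a call needed a p under 0.05 after Benjamini-Hochberg adjustment over all 31960 genes.

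The gene on which the strains stood furthest apart by adjusted p was Psmb5, the constitutive subunit with chymotrypsin-like activity. It is shown first because it has a near-identical copy, which may share its reads. Psmb5 lies at chr14:54614119-54618022 on the minus strand (GRCm38), and its processed pseudogene Gm3375, an intronless copy, lies at chr7:3181093-3181888 on the plus strand. Gm3375 covers the whole coding sequence of Psmb5, 795 bases with the stop codon, and differs from it by 8 substitutions and 1 extra base after coding base 263. The longest stretch without a difference was 194 bases. Coding bases 286 to 465 hold 5 of the 8 substitutions and show how few letters tell reads of the pair apart. The differing bases are in capitals, and the stretches lie at chr14:54616555-54616734 and chr7:3181379-3181558.
Psmb5: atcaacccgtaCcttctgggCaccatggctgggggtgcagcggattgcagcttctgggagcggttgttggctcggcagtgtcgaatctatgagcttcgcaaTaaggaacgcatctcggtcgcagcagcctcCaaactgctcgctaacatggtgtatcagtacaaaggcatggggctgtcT
Gm3375: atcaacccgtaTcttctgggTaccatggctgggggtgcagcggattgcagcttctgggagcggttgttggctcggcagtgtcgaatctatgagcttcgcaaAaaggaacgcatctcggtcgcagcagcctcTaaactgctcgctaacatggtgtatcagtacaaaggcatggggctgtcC
Counted from the first coding base, these 5 substitutions were C297T, C306T, T387A, C417T and T465C, with the base of Psmb5 first.

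Psmb5 was at 83.4, 69.6, 83.5 and 76.7 CPM in High Activity females, against 106, 98.0, 105 and 94.4 CPM in Low Activity females. In males it was at 81.8, 73.7, 77.5 and 83.0 CPM in the High Activity strain, against 91.4, 94.0, 87.5 and 99.8 CPM in the Low Activity strain. Every High Activity library was thus below every Low Activity library. The difference was -0.37 ± 0.06 in females (adjusted p = 0.000181) and -0.24 ± 0.06 in males (adjusted p = 0.0159). The male call was lost without library 6 or without library 16 (adjusted p = 0.0612 and 0.0657).

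Gm3375 had the opposite pattern. It was assigned 491, 469, 501 and 413 counts in High Activity females, against 7, 0, 0 and 0 counts in Low Activity females. High Activity males had 508, 424, 440 and 489 counts, against 0, 0, 0 and 1 counts in Low Activity males. The copy thus held 17.9% to 21.3% of the counts of the pair in High Activity libraries and at most 0.244% in Low Activity libraries. Psmb5 and Gm3375 together reached 96.6 ± 7.51 CPM in High Activity females and 101 ± 5.80 CPM in Low Activity females, and 98.2 ± 4.55 CPM in High Activity males and 93.2 ± 5.18 CPM in Low Activity males (SD, n = 4 each). These groups overlapped. With the counts of copies added to their parent genes, Psmb5 differed by -0.06 ± 0.06 in females (adjusted p = 0.58) and by 0.08 ± 0.06 in males (adjusted p = 0.582), so the call was lost and the direction in males turned. Whether the reads assigned to Gm3375 came from the copy or from Psmb5 was not tested, since counts per gene do not show it. All 10 other copies added (at least 95% identical over at least 300 bases) were nearly empty, with 1 to 41 counts each over all libraries.

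**Figure D1:**
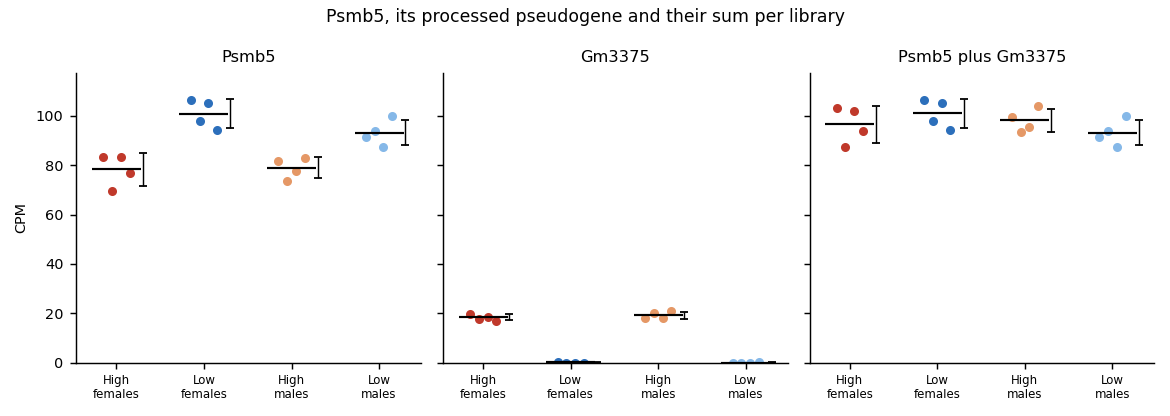
CPM of Psmb5, of Gm3375 and of their sum in each library (points), with the mean (horizontal line) and SD (bar) of the 4 libraries of each group. Gm3375 was near 0 in Low Activity libraries and between 17 and 20.9 CPM in High Activity libraries, and the sum overlapped between the strains.

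Across the 49 genes, 11 were called for any strain effect (22.4%), beside 10.3% of all genes and 18.7% of the 15128 protein-coding genes that passed the filter on low counts. That share is near the background of expressed genes. The called genes were Psma4, Psma7, Psmb2, Psmb3, Psmb5, Psmb7, Psmb10, Psmb11, Psmc3, Psmd9 and Psmg4. The direction was uneven. In females, 10 genes were called lower in the High Activity strain (20.4%, beside 3.55% of all genes and 6.43% of the expressed protein-coding genes), and 1 was called higher, Psmb11 (beside 3.7% and 6.88%). Psmd6 was among the 10, although it did not pass the joint test of any strain effect. With each library left out in turn, the female calls numbered 5 to 12, with the fewest (5) without library 4 or library 9. In males, only Psmb5 was called lower (beside 3.25% and 5.75%) and only Psmd9 higher (beside 2.78% and 4.9%).

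The shift in females was small for each gene and shared by most of them. The log2 fold change was below 0 for 42 of 49 genes in females, beside 44.7% of all genes and 51.9% of expressed protein-coding genes, and the median was -0.10, against -0.01 for the expressed protein-coding genes. In males it was below 0 for 24 of 49 genes, beside 45.4% of all genes and 51.8% of expressed protein-coding genes, with a median of 0.01. The proteasome genes are short, with a median transcript of 1541 bases, against 3189 bases for expressed protein-coding genes. With an offset for transcript length and GC content, 37 of 49 genes were below 0 in females (median -0.08, against -0.03 for expressed protein-coding genes) and 34 of 49 in males (median -0.03, against -0.01). Of the 15128 expressed protein-coding genes, 8501 were below 0 in females and 8075 in males with this offset. In males the alpha ring then turned, with 6 of 7 genes below 0, against 2 of 7 without the offset. In 18 of 49 genes every High Activity female was below every Low Activity female (36.7%, beside 6.79% of all genes and 12.2% of expressed protein-coding genes), and in males this held for Psmb5 and Psmc3, 2 of 49 genes (beside 5.12% and 8.74%). Over all 16 libraries the strains did not overlap for Psmb5 and Psmc3, both lower in the High Activity strain, and for Psmd9, which was higher (beside 1.73% of all genes and 2.92% of expressed protein-coding genes lower without overlap, and 1.54% and 2.62% higher).

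The interaction of strain with sex was called for 0 of 49 genes by edgeR, DESeq2 and limma-voom, and 5 genes had an unadjusted p under 0.05 in edgeR (beside 10% of all genes and 16.1% of expressed protein-coding genes): Psma7, Psmb3, Psmb7, Psmb9 and Psmb10. The share called was 0.0% of the whole table. The fold change was more negative in females than in males for 44 of 49 genes, beside 50.1% of all genes and 50.4% of expressed protein-coding genes. With the length and GC offset this held for 35 of 49 genes, beside 7960 of 15128 expressed protein-coding genes. The median difference between the sexes shrank to -0.04, against -0.10 without the offset and -0.01 for expressed protein-coding genes with it. A difference between the sexes in the strain effect was therefore not shown for any single gene. The male result also moved with the libraries used. Without High Activity males 6 and 8, the libraries with the highest thalamus and habenula markers in that group, 35 of 49 genes were below 0 in males, and the median was -0.05, against -0.01 for expressed protein-coding genes, of which 53.7% were below 0. Males 6 and 8 also had the highest constitutive core sums of their group (1053 and 1128 CPM, against 1021 and 995 CPM). Leaving them out therefore lowers the High Activity males for these genes. Low Activity males 14 (160 CPM) and 16 (124 CPM), also high in these markers, stayed in that fit. Their core sums (1084 and 1116 CPM) were the highest of the Low Activity males. The part of the markers in this shift was not tested. In that fit Psmb5 (adjusted p = 0.0678) and Psmd9 (adjusted p = 0.0884) were no longer called in males, and Psma4 was.

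No proteasome gene was called for sex, male minus female as the mean over the strains (beside 0.0501% of all genes and 0.0727% of expressed protein-coding genes). Psmb9 was the 1 gene with an unadjusted p under 0.05 there (beside 6.06% and 8.14%), at -0.45 ± 0.17 (adjusted p = 0.68). DESeq2 and limma-voom called none either.

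**Figure D2:**
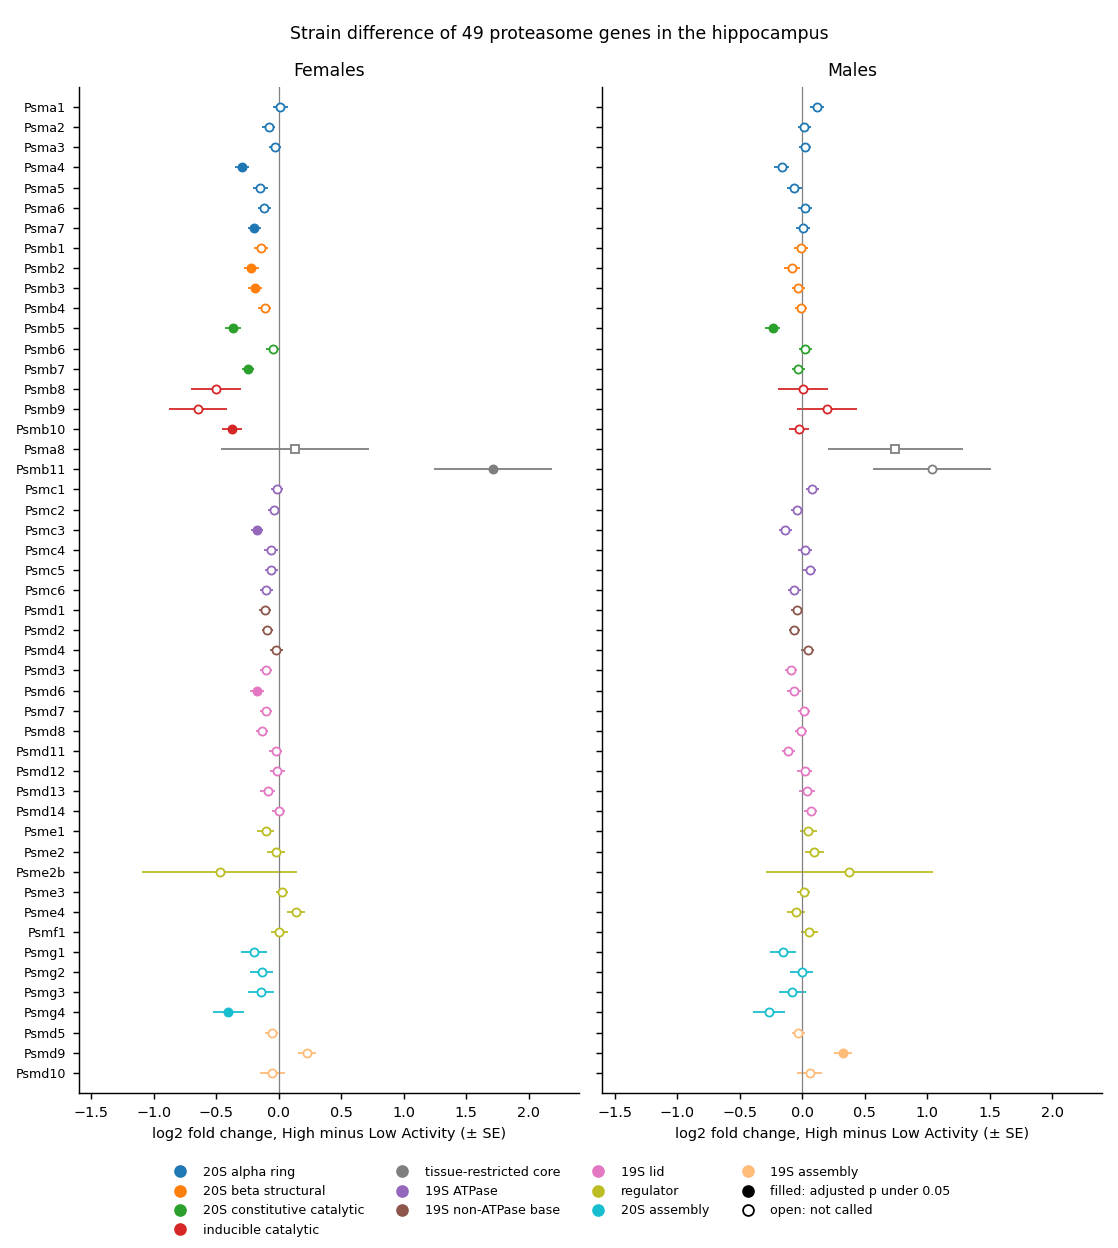
Log2 fold change, High minus Low Activity, of each of the 49 genes in females (left) and males (right), with bars of 1 standard error; filled points passed an adjusted p of 0.05 in that sex, and the square marks Psma8, which did not pass the filter on low counts. Most points lie left of 0 in females (42 of 49) and scatter around 0 in males (24 of 49 below).

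By role, the constitutive 20S core carried most of the female calls. Of its 14 genes, 6 were called lower in females (beside 3.55% of all genes and 6.43% of expressed protein-coding genes). In females 13 were below 0, with a median of -0.15, and in males 8 were below 0, with a median of -0.01. These calls moved with the setting. With the length and GC offset only Psma4, Psmb5 and Psmb7 of the core were called in females, and with copies added Psmb5 was not. The offset left 12 of the 14 genes below 0 in females, with a median of -0.12. Summed over the 14 genes, the core was at 994 to 1051 CPM in High Activity females, against 1117 to 1168 CPM in Low Activity females, which did not overlap. Without Psmb5 the sums were 919 to 968 CPM in High Activity females, against 1023 to 1061 CPM in Low Activity females, and still did not overlap. In males the sums were 1021, 1053, 995 and 1128 CPM in the High Activity strain (males 5 to 8), against 1031 to 1116 CPM in the Low Activity strain, and the groups overlapped through males 6 and 8. The thalamus and habenula markers also did not overlap between the strains in females, and their part in the core result was not tested.

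**Figure D3:**
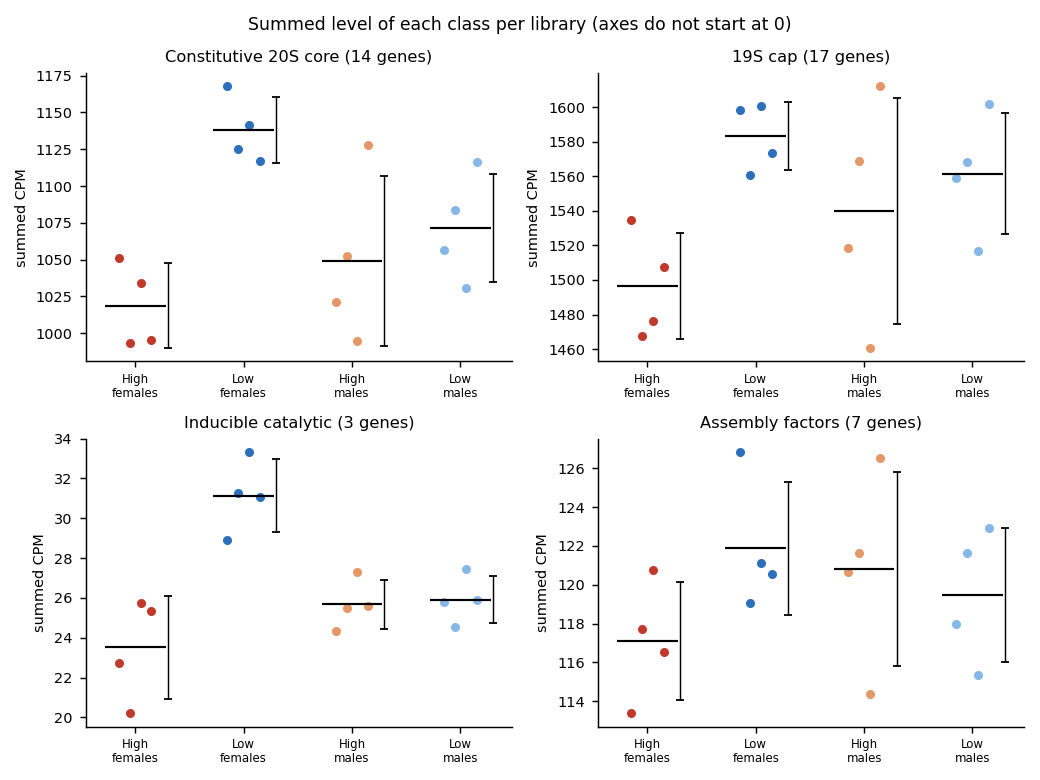
Summed CPM of the 14 constitutive core genes, the 17 cap genes, the 3 inducible catalytic genes and the 7 assembly factors in each library (points), with the mean (line) and SD (bar) of the 4 libraries of each group; the vertical axes do not start at 0. High Activity females lie below Low Activity females without overlap for the core, the cap and the inducible subunits, and the sum over all 7 assembly factors overlaps.

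Psma4 and Psma7 were the called genes of the alpha ring, whose N-termini form the gate of the core. Psma4 was at 68.2, 65.8, 63.8 and 59.3 CPM in High Activity females, against 80.1, 75.5, 78.8 and 81.1 CPM in Low Activity females. Male values were 65.6, 67.4, 62.2 and 76.6 CPM in the High Activity strain, against 74.8, 75.9, 73.3 and 80.2 CPM in the Low Activity strain, where High Activity male 8 alone overlapped the other group. The difference was -0.29 ± 0.06 in females (adjusted p = 0.00152) and -0.16 ± 0.06 in males (adjusted p = 0.118).

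Psma7 was at 67.2, 65.2, 68.9 and 65.9 CPM in High Activity females, against 80.1, 75.3, 75 and 75.9 CPM in Low Activity females. Among males, the level was 68.8, 72.0, 69.0 and 79.4 CPM in the High Activity strain, against 68.8, 76.1, 69.4 and 73.6 CPM in the Low Activity strain. The females were separated and the males were not. Psma7 lost its call for any strain effect in 9 of the 16 fits with a library left out. The difference was -0.20 ± 0.05 in females (adjusted p = 0.0214) and 0.01 ± 0.05 in males. The other 5 alpha genes lay between -0.15 and 0.01 in females and between -0.06 and 0.12 in males, none called.

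Of the structural beta subunits, which line the inner rings without cutting, Psmb2 and Psmb3 were called and Psmb1 and Psmb4 were not. Psmb2 was at 43.6, 43.6, 40.2 and 40.2 CPM in High Activity females, against 47.4, 46.0, 48.5 and 53.1 CPM in Low Activity females. In males Psmb2 was at 45.7, 42.3, 39.5 and 45.4 CPM in the High Activity strain, against 46.2, 45.8, 42.5 and 48.8 CPM in the Low Activity strain, and the groups overlapped. The call for any strain effect was lost in 7 of the 16 fits with a library left out. Psmb2 differed by -0.22 ± 0.06 in females (adjusted p = 0.0268) and by -0.08 ± 0.06 in males.

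Psmb3 was at 60.3, 56.9, 57.1 and 60.1 CPM in High Activity females, against 71.6, 67.3, 64.3 and 64.5 CPM in Low Activity females. For males, the values were 58.2, 59.1, 61.0 and 63.9 CPM in the High Activity strain, against 58.3, 64.1, 60.3 and 64.7 CPM in the Low Activity strain. Again the groups were apart in females and overlapped in males. Psmb3 differed by -0.19 ± 0.05 in females (adjusted p = 0.0246) and by -0.03 ± 0.05 in males, and its adjusted p for any strain effect was 0.0471, close to the threshold. That call was lost in 14 of the 16 fits with a library left out.

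The other constitutive proteases parted ways. Psmb7, the trypsin-like subunit, was at 97.6, 93.8, 101 and 96.4 CPM in High Activity females, against 122, 110, 118 and 113 CPM in Low Activity females, with no overlap. Males had 98.9, 105, 99.3 and 111 CPM in the High Activity strain, against 107, 106, 103 and 108 CPM in the Low Activity strain, with overlap. It differed by -0.25 ± 0.05 in females (adjusted p = 0.00168) and by -0.03 ± 0.05 in males, and the interaction was -0.22 ± 0.07 (adjusted p = 0.269). Psmb7 overlaps Nek6 on the opposite strand over 6571 bases. Nek6 was also lower in the High Activity strain, by -0.17 as the mean over the sexes, and was not called (adjusted p for any strain effect = 0.0578).

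Psmb6, the caspase-like subunit, was at 74.9, 66.5, 73.8 and 72.3 CPM in High Activity females, against 76.7, 76.3, 72.4 and 72.1 CPM in Low Activity females. In the male mice it stood at 67.5, 74.8, 66.6 and 71.3 CPM in the High Activity strain, against 69.8, 69.4, 67.0 and 69.8 CPM in the Low Activity strain. The strains overlapped in both sexes, with -0.05 ± 0.05 in females (adjusted p = 0.641) and 0.02 ± 0.05 in males (adjusted p = 0.905).

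The inducible subunits were low in this tissue except Psmb10. Per kilobase of the longest protein-coding transcript, a scale on which genes can be compared, the median over the 16 libraries was 16.8 CPM per kb for Psmb10, 1.87 for Psmb8 and 0.955 for Psmb9. Their constitutive counterparts had medians of 91.0 CPM per kb (Psmb7), 95.1 (Psmb5) and 89.9 (Psmb6). As the mean of 16 libraries, Psmb9 was at 1.16% of Psmb6, Psmb8 at 1.88% of Psmb5 and Psmb10 at 18.6% of Psmb7. These ratios depend on the length used. Per kilobase of merged exons they were 1.01% for Psmb9, 0.904% for Psmb8 and 42.1% for Psmb10, and without division by length 1.97% for Psmb9, 3.40% for Psmb8 and 21% for Psmb10.

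Psmb10, the inducible counterpart of Psmb7, was the called gene of this class. It was at 18.6, 16.9, 21.4 and 21.8 CPM in High Activity females, against 23.1, 25.5, 28 and 25.5 CPM in Low Activity females. In males it was at 19.4, 22.4, 22.6 and 21.8 CPM in the High Activity strain, against 22.2, 21, 22.7 and 21.8 CPM in the Low Activity strain. The females did not overlap, and the Low Activity females were above all other libraries. The difference was -0.37 ± 0.08 in females (adjusted p = 0.00294) and -0.03 ± 0.08 in males (adjusted p = 0.946), and the interaction was -0.35 ± 0.11 (adjusted p = 0.266).

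Psmb9, which lies beside the peptide transporter gene Tap1 in the MHC region, was at 1.33, 0.982, 1.30 and 1.52 CPM in High Activity females, against 1.52, 1.87, 2.29 and 2.36 CPM in Low Activity females. Male values were 1.27, 1.08, 1.39 and 1.28 CPM in the High Activity strain, against 1.19, 0.865, 1.22 and 1.1 CPM in the Low Activity strain. It differed by -0.65 ± 0.23 in females (adjusted p = 0.0936) and by 0.20 ± 0.24 in males, and no call was made in either sex. When only genes passing filterByExpr were tested, Psmb9 was called lower in females. The female groups met at 1.52 CPM, and the male groups overlapped. Psmb9 and Tap1 overlap by 212 bases on opposite strands, and Psmb9 had 582 counts over all libraries.

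Psmb8, the inducible counterpart of Psmb5, was at 2.78, 2.30, 3.09 and 1.98 CPM in High Activity females, against 4.24, 3.85, 3.08 and 3.22 CPM in Low Activity females. Among males, the level was 3.69, 2.02, 3.36 and 2.56 CPM in the High Activity strain, against 2.43, 2.67, 3.51 and 3.02 CPM in the Low Activity strain. It overlapped in both sexes, with -0.50 ± 0.20 in females (adjusted p = 0.146) and 0.01 ± 0.20 in males.

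Summed, the inducible subunits reached 20.2 to 25.8 CPM in High Activity females, against 28.9 to 33.3 CPM in Low Activity females, and 24.3 to 27.3 CPM in High Activity males, against 24.5 to 27.4 CPM in Low Activity males. Interferon response markers followed the same order in females, whereas in males they separated the strains and the inducible subunits did not. All 6 of them (Ifit1, Ifit3, Isg15, Irf7, Usp18 and Oasl2) were called, and their sum was 6.25 to 13.1 CPM in High Activity females, against 16.1 to 23.0 CPM in Low Activity females, and 4.82 to 8.12 CPM in High Activity males, against 12.2 to 21.2 CPM in Low Activity males. They were thus lower in the High Activity strain in both sexes, with median differences of -1.02 in females and -1.06 in males. The sum over 6 microglia markers was 305 to 345 CPM in High Activity females, against 322 to 336 CPM in Low Activity females, and 4 leukocyte markers summed to 1.73 to 2.90 CPM in High Activity females, against 2.12 to 4.18 CPM in Low Activity females. The part of these cells in the Psmb10 result was not tested.

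**Figure D4:**
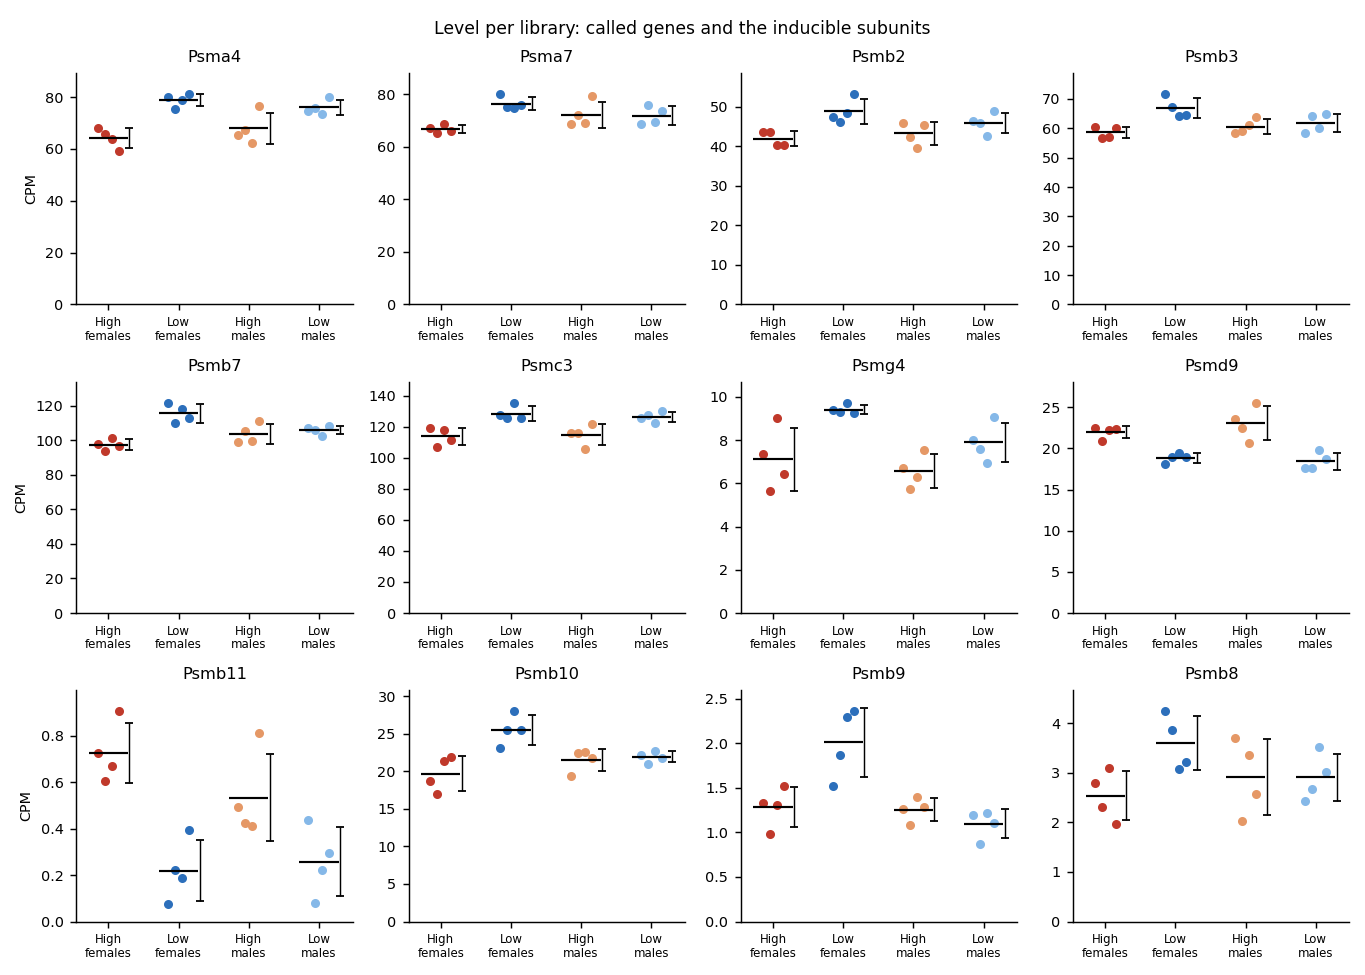
CPM per library (points) with the mean (line) and SD (bar) of each group of 4, for the called genes other than Psmb5 and for the inducible subunits Psmb8, Psmb9 and Psmb10. Psmb10 was between 16.9 and 21.8 CPM in High Activity females and between 23.1 and 28 CPM in Low Activity females, and Psmd9 and Psmb11 were higher in High Activity females.

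The tissue-restricted core subunits were close to absent. Psmb11, the catalytic subunit of thymic epithelium, had 176 counts over all libraries and Psma8, the alpha subunit of male germ cells, had 106. Psmb11 had 18, 16, 18 and 22 counts in High Activity females, against 2, 6, 5 and 10 counts in Low Activity females. In males it had 14, 9, 10 and 19 counts in the High Activity strain, against 11, 2, 6 and 8 counts in the Low Activity strain. The females did not overlap and the males did, with 1.71 ± 0.47 in females (adjusted p = 0.0225) and 1.04 ± 0.47 in males (adjusted p = 0.255). The female call was lost without library 4, 9, 10 or 11. Psmb11 is the neighbour of Psmb5 on chromosome 14, at chr14:54621433-54629556 on the plus strand, and its median level was 0.0980 CPM per kb. Psma8 was not called.

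In the 19S cap, all 17 genes were below 0 in females and 9 of 17 in males, where the median was -0.01, against a female median of -0.09. The sum over the cap was 1468 to 1535 CPM in High Activity females, against 1561 to 1601 CPM in Low Activity females, and overlapped in males. The calls were few. Psmc3, an ATPase of the ring that unfolds substrates, was called for any strain effect (adjusted p = 0.0131), and Psmd6, a lid subunit, was called in females at -0.18 ± 0.05 (adjusted p = 0.0459). The female call of Psmd6 was lost without library 1, 3, 4, 5, 9, 11, 12, 13 or 14. It was also lost with the length and GC offset.

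Psmc3 was at 119, 107, 118 and 111 CPM in High Activity females, against 127, 126, 135 and 126 CPM in Low Activity females. For males, the values were 116, 116, 106 and 122 CPM in the High Activity strain, against 125, 127, 122 and 130 CPM in the Low Activity strain. No High Activity library reached a Low Activity library in either sex. The call was lost without library 2. The difference was -0.18 ± 0.05 in females (adjusted p = 0.0343) and -0.14 ± 0.05 in males (adjusted p = 0.134). Psmc3 shares 4579 bases with Slc39a13 on the opposite strand, which was also lower in the High Activity strain, by -0.28 as the mean over the sexes (adjusted p for any strain effect = 0.000619). The other 15 cap genes, among them the deubiquitinase Psmd14 and the ubiquitin receptor Psmd4, lay between -0.13 and -0.00136 in females and between -0.11 and 0.08 in males.

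The regulators differed little. Psme1 and Psme2 encode the PA28 activator, Psme3 and Psme4 the nuclear activators PA28 gamma and PA200, and Psmf1 the inhibitor PI31. None of the 6 was called, and the 5 with over 200 counts lay between -0.10 and 0.14 in females and between -0.05 and 0.10 in males. Psme2b, a copy of Psme2 that is 99.4% identical to it over 794 bases, had 108 counts over all libraries, against 7774 for Psme2, and its counts are uncertain.

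Psmd9, a chaperone of the ATPase ring, was the member called higher in males. It was at 22.4, 20.9, 22.2 and 22.4 CPM in High Activity females, against 18.1, 18.9, 19.5 and 18.9 CPM in Low Activity females. Males had 23.6, 22.4, 20.6 and 25.5 CPM in the High Activity strain, against 17.6, 17.6, 19.8 and 18.7 CPM in the Low Activity strain. The strains did not overlap in either sex. The difference was 0.22 ± 0.07 in females (adjusted p = 0.0582) and 0.32 ± 0.07 in males (adjusted p = 0.0045). The female result depended on the setting. Psmd9 was called higher in females by DESeq2, with each sex alone, with filterByExpr and with the length and GC offset. Limma-voom and the fit with copies added did not call it there. The other cap chaperones, Psmd5 and Psmd10, lay between -0.06 and 0.06 in both sexes and were not called.

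The 4 chaperones of the core lay below 0 in both sexes, and Psmg4 was called. Psmg4, which pairs with Psmg3, was at 7.34, 5.66, 9.01 and 6.42 CPM in High Activity females, against 9.40, 9.28, 9.73 and 9.24 CPM in Low Activity females. In the male mice it stood at 6.72, 5.73, 6.28 and 7.56 CPM in the High Activity strain, against 8.0, 7.59, 6.95 and 9.09 CPM in the Low Activity strain. The males overlapped through 2 libraries, High Activity male 8 and Low Activity male 15. The difference was -0.40 ± 0.13 in females (adjusted p = 0.0487) and -0.27 ± 0.13 in males (adjusted p = 0.292). The call of Psmg4 for any strain effect was lost in 7 of the 16 fits with a library left out. Psmg1, Psmg2 and Psmg3 lay between -0.20 and -0.14 in females, not called.

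Levels per length differed between roles. Over the 16 libraries, the median level of the 14 constitutive core genes ran from 25.9 CPM per kb (Psma2) to 95.1 (Psmb5), a spread of 3.67-fold, although the finished core holds equal numbers of these subunits. The cap genes ran from 22.0 (Psmd11) to 99.8 (Psmc5) CPM per kb. The assembly factors ran from 7.23 (Psmg1) to 13.6 (Psmg4) CPM per kb, below every constitutive core and cap gene on this length. Per kilobase of merged exons this separation failed, with Psmg4 at 13.6 CPM per kb and the cap gene Psmd11 at 9.80, so the order of genes depends on which transcript sets the length.

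**Figure D5:**
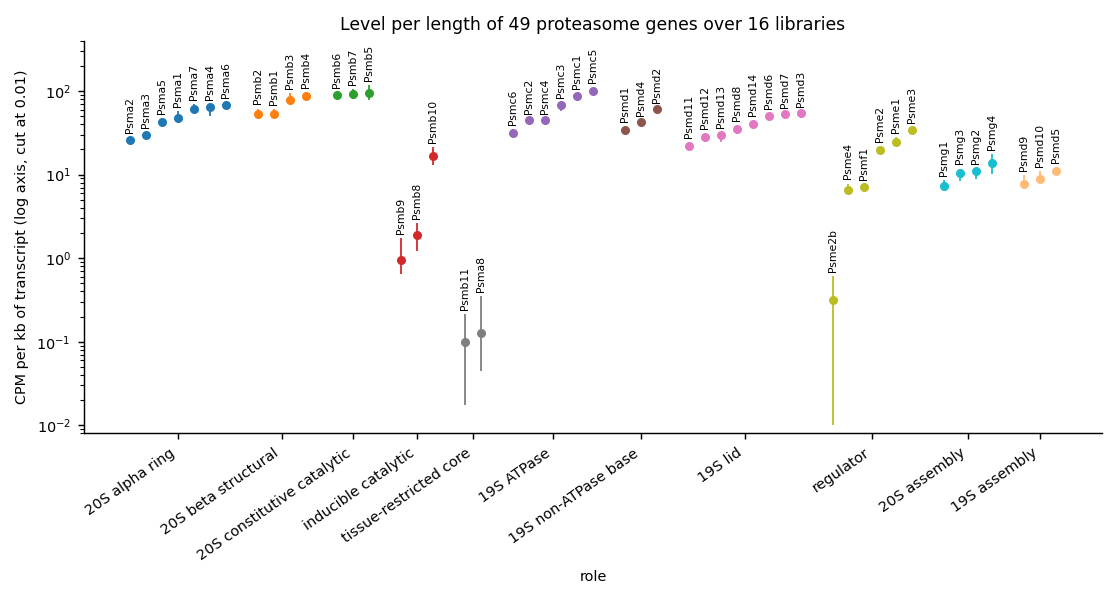
Median CPM per kb of the longest protein-coding transcript over the 16 libraries for each gene (points), with lines from the lowest to the highest library, on a log axis cut at 0.01 (Psme2b was at 0 in 1 library), grouped by role. Core and cap genes lie between 22.0 and 99.8, assembly factors between 7.23 and 13.6, and Psmb8, Psmb9, Psma8, Psmb11 and Psme2b below 2.

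Promoter windows from RefSeq (GRCm38.p6), from 250 bases before to 50 bases after each start, were matched for 41 of the 49 genes. They were searched on both strands for the core letters of 3 motifs: TGACNNNGC, the antioxidant response element that Nfe2l1 and Nfe2l2 bind at proteasome genes; GAAA followed after 2 free bases by another GAAA, the interferon-stimulated response element; and TTCNNNGAA, the site of STAT factors. TGACNNNGC was in 6 of 41 genes (14.6%), beside 12.4% of all 32851 windows, the interferon element in 5 of 41 (12.2%), beside 3.44%, and TTCNNNGAA in 3 of 41 (7.32%), beside 8.30%. The units differ. A gene counted when any of its windows held the letters, while the background is a share of single windows. A gene with several windows thus had more chances of a match. Of the 8 called genes with a window, 2 held the first motif (Psmb5 and Psmd9), 3 the second (Psmb3, Psmd9 and Psmg4) and none the third. The windows of these genes and the STAT letters of Psmb8 are shown in the direction of the gene, with the match in capitals.
Psmb5, antioxidant response element, chr14:54618024-54618052: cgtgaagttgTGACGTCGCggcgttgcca
Psmd9, antioxidant response element, chr5:123228149-123228177: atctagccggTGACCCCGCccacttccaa
Psmd9, interferon element, chr5:123228021-123228050: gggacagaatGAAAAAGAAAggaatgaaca
Psmb3, interferon element, chr11:97703261-97703290: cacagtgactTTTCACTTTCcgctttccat
Psmg4, interferon element, chr13:34162969-34162998: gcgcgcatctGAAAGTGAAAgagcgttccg
Psmb8, STAT site, chr17:34198088-34198116: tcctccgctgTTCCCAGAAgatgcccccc
The match of Psmb3 is on the opposite strand, so its letters read in reverse complement. A match describes letters and was not tested as a binding site.

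Genes around the proteasome were read from 3 lists. Of 21 partners that the symbol rule leaves out, 6 were called for any strain effect (beside 10.3% of all genes and 18.7% of expressed protein-coding genes). In females 3 were called higher and 3 lower. This list holds the cap subunits Adrm1 and Sem1 and the core chaperone Pomp beside ubiquitin shuttles, deubiquitinases and regulators of proteasome genes. Sem1 was called lower in females at -0.24 ± 0.07 (adjusted p = 0.0260) and was at 0.01 in males. Pomp was at -0.18 in females (adjusted p = 0.0550) and 0.06 in males. Adrm1 was at -0.15 in females (adjusted p = 0.0858) and -0.09 in males, and neither was called in either sex. Rad23b, a shuttle that carries ubiquitinated proteins to the cap, was higher at 0.21 ± 0.05 in females (adjusted p = 0.00318) and 0.16 ± 0.05 in males (adjusted p = 0.0283). Fbxo7, a ubiquitin ligase subunit that binds PI31, was higher in females at 0.20 ± 0.06 (adjusted p = 0.0304). Ddi2, the protease that activates Nfe2l1, was lower in males at -0.35 ± 0.07 (adjusted p = 0.00119) and at -0.07 ± 0.07 in females (adjusted p = 0.59), and it shares 1749 identical bases with Rsc1a1. Nfe2l1, the main activator of proteasome genes, was at 0.00 in females and 0.02 in males and was not called.

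Uba1, the main ubiquitin-activating enzyme, was higher in females at 0.19 ± 0.05 (adjusted p = 0.00693). None of the 13 genes of class I presentation and its regulators was called, the medians being -0.07 (females) and -0.03 (males), and Tapbpl, a peptide editor of class I, was at -0.40 in females (adjusted p = 0.124). B2m, the light chain of class I, was at -0.21 ± 0.08 in females (adjusted p = 0.149).

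The called genes lay on 8 chromosomes. Within 1 Mb of each, the share of protein-coding genes that were also called ran from 0 of 14 around Psmb7 and 5 of 68 around Psmb10 to 14 of 50 around Psmb5 and 14 of 47 around Psmd9, from 0.0% to 29.8%, beside 18.7% of expressed protein-coding genes in the whole table. The sets differ, since neighbours were counted without the filter on low counts and the 18.7% is over genes that passed it. Neighbours share a haplotype in inbred strains, and the part of linked variants in these differences was not tested.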

How the data were processed

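Total poly-A RNA of the hippocampus was sequenced as paired ends, with 1 library per mouse. After trimming, the authors used HISAT2 to place the reads on the mouse mm10 genome and estimated expected counts per gene with RSEM, with DESeq2 1.30.1 also named in the submitters' processing notes. The expected counts were deposited as whole numbers, with genes at 0 in all libraries removed, and were used as they stand. The strand setting of the counting is not given in the sources used here, so genes that overlap on opposite strands may share reads. RSEM divides reads that fit several copies by estimation. The authors' own fold changes and p-values were not used.

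The test was edgeR 4.0.16 (R 4.3.3, limma 3.58.1) with TMM factors and quasi-likelihood F-tests on strain, sex and their interaction over 16 libraries, and Benjamini-Hochberg adjustment over all 31960 genes. The same test was also run on data simulated with the means and dispersions of the main fit. Alternatives were DESeq2 1.42.0, limma-voom, other normalizations, filterByExpr, each sex alone, a length and GC offset, copies added to their parents, libraries left out, and other transcript lengths (merged exons for the ratios were added after seeing the data). Depth was 20815456 to 28760896 counts per library. Replicates were separate mice.

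Values per library are given for every gene called for any strain effect, for the 3 inducible catalytic subunits and for their 3 constitutive counterparts, and of each related list up to 3 genes with the smallest p are named. Some other genes of the related lists are named for their role. The genes, lists and motifs were chosen with earlier results of these data known. Lists are described by counts, with no test of their own. Some genes of the related lists are not reported here.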

Additional observations from a re-analysis of the deposited data

Results flagged for a closer look

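Among the 56 groups of 4 libraries examined for the 14 genes given per library, 2 held a library far from the other 3, and chance gives this in about 5% of groups. Psmd9 in High Activity females was lowest in library 2 (20.9 CPM), with the remaining 3 between 22.2 and 22.4 CPM. Psmb6 in Low Activity males was lowest in library 15 (67.0 CPM), with the remaining 3 between 69.4 and 69.8 CPM.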

How the results depend on the processing

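No paired analysis was possible because the replicate numbers run from 1 to 16 and no number is shared between groups. Leaving out each library in turn gave 5 to 12 genes called in females (against 11), 1 to 3 in males (against 2), 8 to 14 as the mean over the sexes (against 10) and 7 to 12 for any strain effect (against 11). The count in females was 7 without library 2, 10 or 12, 6 without 11 and 5 without 4 or 9, and the count for any strain effect was 7 without 2, 4, 9, 11 or 12. In males it was 1 without 6 or 16. With filterByExpr 14 genes were called in females, Psmb9 and Psmd9 among them. The offset for length and GC left 7 calls in females and gave 4 in males, and in males 1 was called with copies added and 1 without High Activity males 6 and 8. Interaction and sex gave 0 calls in every setting run. Psma4, Psmb7, Psmb10, Psmb11 and Psmd9 were called for any strain effect in all 25 settings, Psmb5 lost its call with copies added, and Psmc3 lost it without library 2. Psmg4 was called in 17 of the 25 settings, Psmb2 in 16, Psma7 in 14 and Psmb3 in 8. With copies added, Psmb5 turned to 0.0751 in males and 0.00523 as the mean over the sexes. Psmb6, never called, was at 0.0200 as the mean with the offset, at 0.0143 without library 2 and between -0.0297 and 0.0143 with each library left out. Without division by length the ratios were 1.97% (Psmb9 over Psmb6), 21% (Psmb10 over Psmb7) and 3.40% (Psmb8 over Psmb5). Merged exon length, an alternative for the ratios chosen after seeing the data, gave 42.1% for Psmb10 over Psmb7, 0.904% for Psmb8 over Psmb5 and a 4.90-fold spread of core levels. The cause of each of these changes was not tested, and the fits with libraries left out also rest on fewer libraries. Depth limits Psmb8, Psmb9, Psmb11, Psma8 and Psme2b.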
